A study of Mus musculus with 2 samples.

Results

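The cyclin-dependent kinase (CDK) inhibitors described here are the 7 genes *Cdkn1a*, *Cdkn1b*, *Cdkn1c*, *Cdkn2a*, *Cdkn2b*, *Cdkn2c* and *Cdkn2d*. They were taken by symbol from the gene list that comes with the counts, by a rule that uses no measured value. Earlier results of these data were known when they were chosen. They are 7 of the 32285 genes listed. All 7 had at least 1 unique molecular identifier (UMI, a counted RNA molecule) in the control library. In the *Gli1 HHIPCKO* library 6 had one, and *Cdkn2a* had none. The proteins bind CDKs, alone or together with a cyclin, and slow the passage of a cell from G1 into S phase. The Cip/Kip members p21 (*Cdkn1a*), p27 (*Cdkn1b*) and p57 (*Cdkn1c*) act on several cyclin and CDK pairs, whereas the INK4 members p16 (*Cdkn2a*), p15 (*Cdkn2b*), p18 (*Cdkn2c*) and p19 (*Cdkn2d*) bind CDK4 and CDK6. A lasting stop of division, called senescence, can come with p21 or p16 and has been described in lung stroma and epithelium. *Cdkn2a* also encodes Arf, a protein that acts through p53.

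Single-cell RNA sequencing was done on the lungs of 1 control and 1 *Gli1 HHIPCKO* mouse, both at postnatal day 14 and both Gli1creERT/+ with 2 floxed alleles of *Hhip*, which encodes an inhibitor of Hedgehog ligands. The control mouse was given oil and the other mouse tamoxifen, in daily injections that began at birth. Cre was driven by the *Gli1* promoter, so the deletion is aimed at *Gli1*-expressing stromal cells and not at epithelium. Live stromal and epithelial cells were sorted, joined at a ratio of 3:1 and loaded on 1 lane for each mouse. The strain is not given in the sources used here, and the sources name both a 5′ and a 3′ kit for the libraries.

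The control library held 43291709 UMIs in 10999 cells, with a median of 3531 UMIs and 1564 genes a cell. The *Gli1 HHIPCKO* library held 52338969 UMIs in 12350 cells, with a median of 3720 UMIs and 1699 genes a cell. After filters on genes and mitochondrial UMIs, 10917 control and 12115 *Gli1 HHIPCKO* cells were kept. The libraries shared 193 cell barcodes as deposited and 185 among the kept cells, which is 1.69% of control cells and 1.53% of the others. The 7 genes together had 53935 of the 95630678 UMIs of both libraries.

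The labels were checked with *Hhip* and with the sex-linked gene *Xist*. *Hhip* (ENSMUSG00000064325) had 14295 UMIs in the kept cells of the control and 4621 in those of the *Gli1 HHIPCKO* mouse, the lower count being in the mouse labelled with tamoxifen. *Xist* had 12 and 14062 UMIs. The mice thus differed in a sex-linked gene as well as in *Hhip*, and an effect of sex and an effect of the deletion cannot be told apart in any value given here. The same holds for effects of tamoxifen against oil, of the single mouse and of its lane. By class (classes and CPM are defined below), DMF-like cells held 8302 and 2086 *Hhip* UMIs, a log2 ratio of −2.28. ALMF-like cells fell least among stromal classes, from 266 to 159 CPM (−0.74). *Hhip* was also lower in AT2-like (−1.96), ciliated-like (−2.35) and lymphocyte-like cells (−1.94). Intervals in endothelial-like and proliferating-like cells include 0. The lower count was thus not limited to stroma, and its cause was not tested.

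Cells were clustered with both libraries together, with the 7 inhibitors among 129 genes held out, and clusters were named from marker genes. A class is therefore written as ALMF-like (alveolar myofibroblast), DMF-like (ductal myofibroblast), AT2-like (alveolar type 2 epithelium) and so on. The peribronchial fibroblast-like class was named from contractile genes such as *Actc1*, *Cnn1* and *Des*, with *Actc1* the most abundant in both libraries. The paper reads *Actc1* to compare airway with vascular smooth muscle cells. Smooth muscle cells were not told apart from fibroblasts in this class. Values were compared in the 12 classes with at least 50 cells in each library. Clusters without a name held 12.4% of control and 15.5% of *Gli1 HHIPCKO* cells and are left out of the values by class. The myofibroblast classes were made of clusters split by library, so cell state and library are not separated in them. ALMF-like cluster 104 had 1043 control and 55 *Gli1 HHIPCKO* cells, and ALMF-like cluster 105 had 7 and 778. The latter was led by *Entpd1*, *Egfem1* and *Lnx1*, with 1 ALMF marker among its 10 leading genes. DMF-like cluster 101 had 1615 and 34 cells, and DMF-like cluster 100 had 20 and 1678. In each library, all 12 ALMF markers had UMIs in ALMF-like cells, with a sum of 6887 and 5134 CPM (defined below), and all 12 DMF markers had UMIs in DMF-like cells, with 7509.7 and 8611 CPM.

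A level is a gene's summed UMIs in the cells of 1 class and 1 library, scaled to 1000000 UMIs of that class (CPM). Log2 ratios are *Gli1 HHIPCKO* CPM over control CPM. There was 1 mouse per group, so no test was made, and 95% intervals (exact Poisson for CPM, exact Clopper-Pearson for shares and ratios) cover counting error only. For a count of 0 the limit given is not an interval but the share that 3 cells with a UMI would make, and it bounds detection, not expression. A gene was measured in a class when it had at least 50 UMIs there over both libraries, and it is called up or down when its level differed at least 2-fold.

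In the stroma, *Cdkn1a* passed this limit upwards in all classes except DMF-like cells, and *Cdkn2c* passed it downwards in ALMF-like cells. In ALMF-like cells 1 of 5 measured members was up, where 3.4% of 9509 genes were, and 1 was down, where 1.85% of genes were. In DMF-like cells 0 of 5 were up and 0 down, against 2.69% and 2% of 10556 genes. With 5 members measured, 1 called member is the smallest number above 0 that can be seen. Peribronchial fibroblast-like cells had 1 of 5 up and 0 down, against 2.52% and 1.6% of 6747 genes. Adventitial fibroblast-like cells gave the same counts, against 2.19% up and 1.43% down of 8206 genes. Alveolar fibroblast-like cells had 1 of 5 up, with a background of 1.95% of 9938 genes, and 0 down, with 1.78%. In each of these classes the member that was up was *Cdkn1a*, which was also the 1 of 5 in pericyte-like cells, where 2.05% of 7378 genes were up and 0.773% down.

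In the epithelium, AT2-like cells had 1 of 6 members up (*Cdkn1a*), against 1.47% of 11873 genes, and 1 down (*Cdkn2c*), against 1.26%. Ciliated-like cells had 0 of 4 up or down, against 0.984% and 1.26% of 6099 genes. Among the other classes, 1 of 2 measured members was up in endothelial-like cells (*Cdkn1a*), against 3.11% of 2089 genes, and 0 were down, against 1.77%. Lymphocyte-like cells had 0 of 4 past the limit, where 2.53% of 4038 genes were up and 2.23% down. Red cell-like cells had 1 of 3 up (*Cdkn1a*), but 20.8% of 2823 genes were up there, a share close to that of the members, and 1.31% down. Proliferating-like cells had 0 of 5, against 3.11% up and 5.43% down of 5857 genes.

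Over all 54 pairs of a measured member and a class, 8 were up, each of them *Cdkn1a*, and 2 were down, both of them *Cdkn2c*. The number up was from 5 after thinning to 12 with the libraries clustered on their own, and other members were among them under some settings, *Cdkn1c* in red cell-like and *Cdkn2c* in DMF-like cells. The number down rests on values near the limit and is 1 or 3 under most other settings. Counting intervals lay above 0 in 22 pairs and below 0 in 8. These counts have no share of all genes beside them, unlike those of the 2-fold limit, and describe the members only. All 11 intervals of *Cdkn1a* that exclude 0 and all 7 of *Cdkn1b* were above 0, while those of *Cdkn2c* and *Cdkn2d*, 3 for each gene, were below. *Cdkn1c* went both ways, with 4 above and 2 below, and *Cdkn2b* had none that excludes 0. In red cell-like and proliferating-like cells the choice of genes in the total moves the median log2 ratio of all genes by −0.36 and 0.15, so ratios there are also given against that median. Against it *Cdkn1b* in red cell-like cells was at −0.75 (−1.10 to −0.41) and *Cdkn2d* in proliferating-like cells at 0.42 (0.17 to 0.66), so the counts above hold before centring.

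**Figure D1:**
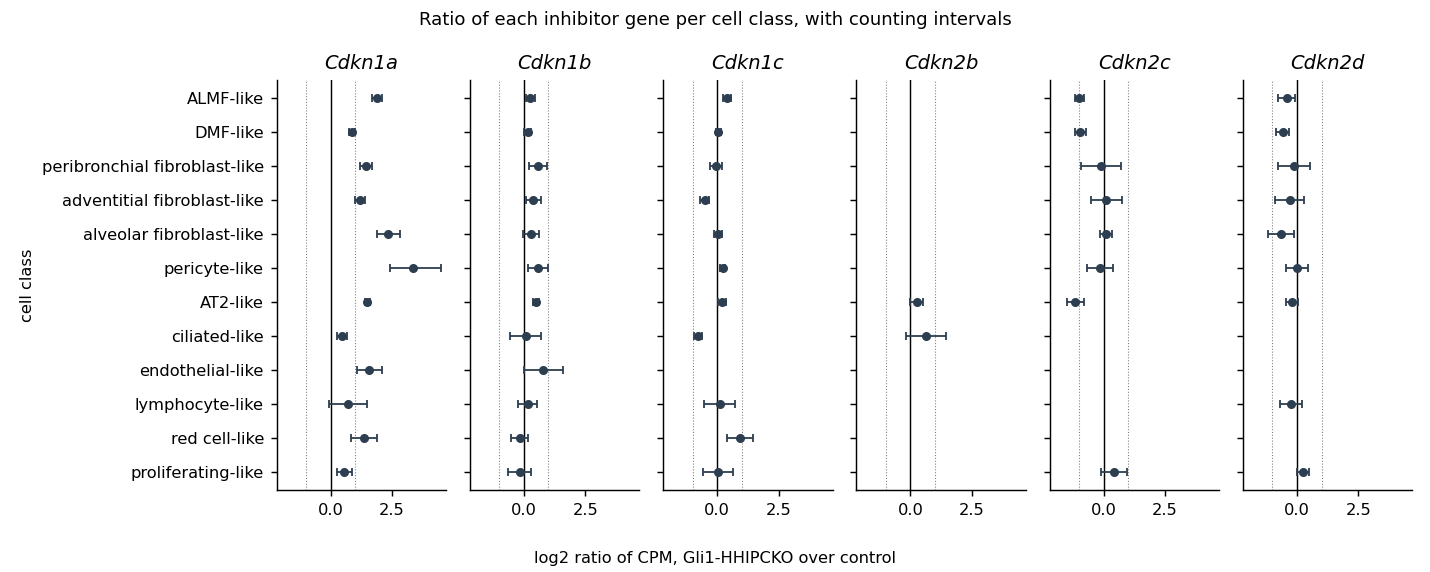
Log2 ratio of CPM, *Gli1 HHIPCKO* over control, for the measured inhibitor genes (panels) in each cell class (vertical axis). Points are the ratios of 1 mouse against 1 mouse, bars are 95% exact intervals of counting error and dotted lines mark a 2-fold difference. *Cdkn1a* lies between 0.46 and 3.36 in all 12 classes, and *Cdkn2c* is at −1.002 (−0.99 and −0.97 under other scalings) and −0.96 in the ALMF-like and DMF-like classes, which are split by library. At a clustering resolution of 2 these *Cdkn2c* values were −0.57 and 1.18.

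*Cdkn1a* (ENSMUSG00000023067; chromosome 17 of GRCm38, 29090976 to 29100727, plus strand) encodes p21, the inhibitor best known as a target of p53. It was higher in the *Gli1 HHIPCKO* library in all 12 classes, with log2 ratios from 0.46 to 3.36 and a median of 1.39. The interval of the ratio included 0 only in lymphocyte-like cells. The mitochondrial share of UMIs was also the higher in that library in all 12 classes, for example 0.447% and 0.704% in DMF-like and 0.183% and 0.394% in red cell-like cells, and its part was not tested. The largest ratios were in classes where control cells had almost none, the pericyte-like and alveolar fibroblast-like cells. Ciliated-like cells had the smallest ratio and, by value, the highest level of the 12 classes in both libraries.

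In the control library, *Cdkn1a* was at 359 CPM (95% interval 325 to 395) in ciliated-like cells, which did not differ from myeloid-like cells (311). It stood at 190.0 CPM in DMF-like, 176 in peribronchial fibroblast-like, 161 in endothelial-like, 146 in adventitial fibroblast-like and 141 in proliferating-like cells, each within counting error of the next of these 5. The ends were apart, with intervals of 178 to 203 in DMF-like and 123 to 161 in proliferating-like cells. ALMF-like cells at 80.1 CPM and AT2-like cells at 72.1 CPM came next and were likewise not apart. Lymphocyte-like cells had 48.8, red cell-like cells 35.5 and alveolar fibroblast-like cells 25.9 CPM, each within counting error of the next of these 3, and lymphocyte-like cells were below AT2-like cells beyond it. Pericyte-like cells were lowest, at 9.45 CPM from 9 UMIs, and below the alveolar fibroblast-like cells beyond counting error.

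In the *Gli1 HHIPCKO* library the first 3 places, within counting error of one another, were held by ciliated-like (492 CPM), endothelial-like (476) and peribronchial fibroblast-like cells (476). DMF-like cells at 345 CPM and adventitial fibroblast-like cells at 333 CPM followed, and ALMF-like cells at 293 CPM were below them beyond counting error. Proliferating-like cells had 206 and AT2-like cells 204 CPM, values that were not apart. Alveolar fibroblast-like cells had 132 CPM, above pericyte-like cells (96.9) beyond counting error. Red cell-like cells (90.5) did not differ from pericyte-like cells, nor did lymphocyte-like cells (80.3) from red cell-like cells. By value the order kept its first class, which was not apart from the next class in either library. Pericyte-like cells left the last place by value only, since they were within counting error of red cell-like cells.

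**Figure D2:**
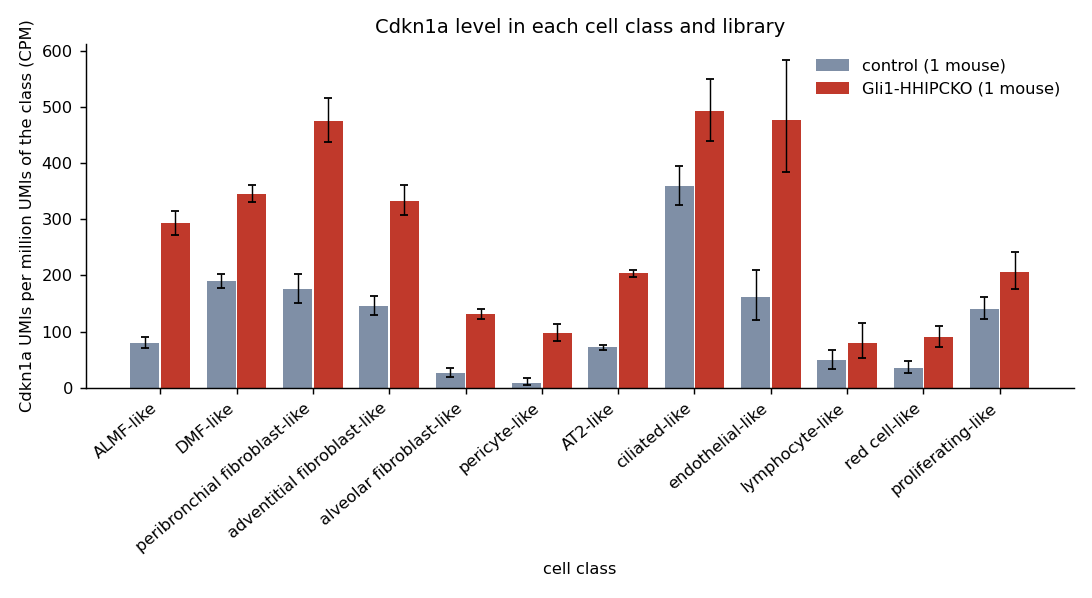
*Cdkn1a* level in each cell class of the control and the *Gli1 HHIPCKO* mouse, in CPM of the class, with 95% exact Poisson intervals of counting error as bars. The *Gli1 HHIPCKO* level is the higher in each class, from 9.45 and 96.9 CPM in pericyte-like cells to 359 and 492 CPM in ciliated-like cells.

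The ratio was largest in pericyte-like cells, with 9 UMIs in 468 control cells and 166 UMIs in 797 *Gli1 HHIPCKO* cells, a log2 ratio of 3.36 (2.40 to 4.51). Of 7378 genes in this class, 7 had a larger ratio. In alveolar fibroblast-like cells 43 UMIs became 857, a log2 ratio of 2.35 (1.91 to 2.83), with 16 of 9938 genes above it. These are stromal classes whose cells sit on capillaries and in the alveolar wall. The log2 ratio was 1.44 (1.20 to 1.68) in peribronchial fibroblast-like cells, with 64 of 6747 genes above it. It was 1.19 (0.99 to 1.39) in adventitial fibroblast-like cells, with 103 of 8206 genes above. Both stand near the first percent of all genes, as does the ALMF-like value of 1.87 (1.67 to 2.08), with 107 of 9509 genes above it.

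In DMF-like cells the log2 ratio was 0.86 (0.75 to 0.97), with 3.56% of genes above it, and it depends on which cells are called DMF-like. At a clustering resolution of 2, with 505 control and 873 *Gli1 HHIPCKO* DMF-like cells, it was −0.014. The AT2-like ratio was 1.498 (1.41 to 1.59), from 1292 and 4178 UMIs, and 47 of 11873 genes had a larger one. Endothelial-like cells had 53 and 94 UMIs and a log2 ratio of 1.57 (1.07 to 2.08). Endothelial cells were meant to be removed by the sort, so these are the 153 and 100 cells that escaped it. The remaining ratios were 0.46 in ciliated-like cells (0.24 to 0.67) and 0.72 in lymphocyte-like cells (−0.05 to 1.48). In red cell-like cells the ratio was 1.35, or 0.77 (0.23 to 1.33) against the median of all genes there. In proliferating-like cells it was 0.55, or 0.73 (0.43 to 1.04) against that median.

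Within single clusters that held at least 50 cells of each library, *Cdkn1a* was again higher in the *Gli1 HHIPCKO* library in every cluster of the classes described here. Pericyte-like cluster 103 had 2 and 100 UMIs, or 2.64 and 75.1 CPM, a log2 ratio of 4.83 (2.94 to 7.89). Alveolar fibroblast-like cluster 102 had 8.90 and 112 CPM, and cluster 111, with shallower cells, 74.3 and 148 CPM. The log2 ratios of these 2 clusters were 3.66 (2.81 to 4.67) and 0.99 (−0.01 to 2.14), on either side of the value of the class, and the second interval includes 0. They held 11 and 10 of the 43 control UMIs of the class. The rest lay in cluster 114, with 46 control cells at a median of 6156 UMIs, so few deep cells weigh on this control level too. The peribronchial clusters 109 and 113 had 185 and 530.4 CPM and 161 and 359 CPM. The adventitial clusters 106 and 112 had 67.8 and 259 CPM and 283 and 622 CPM. Cluster 112 had 1 adventitial marker among its leading genes, which included *Aqp1*, *Fbln2*, *C1qtnf3* and *Adh7*. It held 209 of the 296 control *Cdkn1a* UMIs of the class, so the control level of that class rests mostly on this cluster. The log2 ratios were 1.52 and 1.16 for the peribronchial and 1.93 and 1.14 for the adventitial clusters, so both clusters of a class moved the same way. In ALMF-like cluster 104 the 1043 control cells had 80.6 CPM and the 55 *Gli1 HHIPCKO* cells 295 CPM. In DMF-like cluster 101, 1615 control cells had 189 CPM and 34 *Gli1 HHIPCKO* cells 615 CPM, and in DMF-like cluster 100, 20 control cells had 244 CPM and 1678 *Gli1 HHIPCKO* cells 339.8 CPM.

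The share of cells with a *Cdkn1a* UMI was read at an equal depth, since the *Gli1 HHIPCKO* AT2-like cells were deeper, with a median of 5758 UMIs against 4762. Cells were thinned to 2000 UMIs, and shallower ones (267 and 438 pericyte-like cells) were dropped. Then 3 of 201 (1.49%) and 41 of 359 (11.4%) pericyte-like cells had a UMI. Before thinning the shares were 1.496% and 12.7%, with median depths of 1790 and 1902 UMIs a cell. In alveolar fibroblast-like cells 5.02% and 23.2% had a UMI, and thinning, without 109 and 333 shallow cells, gave 2.71% and 16.8%. Peribronchial fibroblast-like cells had shares of 30.7% and 52.3%, and 19.4% and 45.7% after thinning, without 44 and 77 cells. Adventitial fibroblast-like cells had 23.6% and 36.5%, and 15.3% and 31.6% after thinning, without 107 and 146 cells. Red cell-like cells are given beside these, although they carried 12.5% and 16.9% of the AT2-like *Sftpc* level, more than the stromal classes, and so are no direct measure of free RNA in stroma. There, with median depths of 4998 and 5188.5 UMIs, the shares were 11.2% and 22.1%. Thinning, without 10 and 15 cells, gave 4.88% and 12%. The thinned shares of pericyte-like cells in both libraries and of control alveolar fibroblast-like cells were no higher than these, and the interval for *Gli1 HHIPCKO* alveolar fibroblast-like cells (14.9 to 18.9) overlaps that of red cell-like cells (7.58 to 17.8).

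Shares alone leave out how many UMIs a positive cell had. After thinning, 14.6% of *Gli1 HHIPCKO* ALMF-like cells had more than 1 *Cdkn1a* UMI, against 2.51% of control cells. In DMF-like cells the shares with more than 1 were 8.52% and 15.5%, and in AT2-like cells 1.67% and 7.31%. UMIs of *Cdkn1a* per positive cell were 1.32 and 1.76 in ALMF-like, 1.63 and 2.07 in DMF-like and 1.19 and 1.35 in AT2-like cells. The higher level was thus made up of more positive cells and of more UMIs in each.

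RNA that drifts between droplets was gauged with *Sftpc*, the surfactant protein gene of AT2 cells. In pericyte-like cells *Sftpc* stood at 1.13% and 0.749% of its AT2-like level. The same fraction of the AT2-like *Cdkn1a* level is 0.814 and 1.53 CPM, against the 9.45 and 96.9 CPM counted. In alveolar fibroblast-like cells that fraction gave 0.479 and 0.839 CPM. In red cell-like cells it gave 8.99 and 34.4 CPM of the 35.5 and 90.5 counted, and in endothelial-like cells 17.9 and 44.5 of 161 and 476. These products assume that free RNA has the make-up of AT2-like RNA, which was not tested. The haemoglobin gene *Hbb-bs* did not fall with *Sftpc* in all classes, and went from 549 to 9035 CPM in pericyte-like and from 322 to 785 CPM in alveolar fibroblast-like cells. It went from 363 to 317 CPM in DMF-like and from 1867 to 10906.5 CPM in adventitial fibroblast-like cells. Its part, and that of RNA from other cell types, was not tested.

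*Cdkn1a* also responds to stress and to glucocorticoids, so a pair of gene lists was read beside it. Of the 10 glucocorticoid-induced genes, 3 of 9 measured were up in ALMF-like, 4 of 10 in DMF-like and 3 of 10 in AT2-like cells, and 0 were down. *Mt1* was among them in each class, *Sgk1* in ALMF-like, *Mt2* in DMF-like and AT2-like and *Ddit4* in DMF-like cells. *Fkbp5* rose in all 3, from 25.2 to 105 CPM, from 15.5 to 91.9 CPM and from 3.18 to 15.8 CPM. The list summed to 3556 and 4757 CPM in ALMF-like cells, 2852 and 3616 in DMF-like and 1478 and 2655 in AT2-like cells. Its most abundant gene was *Tsc22d3* in both myofibroblast classes and *Errfi1* in AT2-like cells. The median log2 ratio was 0.67, 0.76 and 0.81, where the medians of all genes were −0.03, −0.0038 and −0.02. In pericyte-like cells 6 of 9 measured genes of the list were up, with a median of 1.04, and in alveolar fibroblast-like cells 5 of 10, with a median of 1.08.

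Of the 11 immediate early genes, 10 were measured in each of these classes, and 0 were up in ALMF-like, 1 in DMF-like (*Fosb*) and 1 in AT2-like cells (*Atf3*, from 275 to 616 CPM). All 10 had a ratio above 0 in ALMF-like and AT2-like cells and 8 in DMF-like cells, with medians of 0.62, 0.59 and 0.41. The list summed to 3999.6 and 6224 CPM in ALMF-like, 7837 and 10631 in DMF-like and 4795 and 7329 in AT2-like cells, with *Jun* the most abundant gene in each. In pericyte-like cells 3 of 10 were up, with a median of 0.74, and the list summed to 1449.7 and 2489 CPM. Endothelial-like and lymphocyte-like cells went the other way, with medians of −0.25 and −0.22, and the medians of the 6 classes not yet named were from 0.27 to 0.79. The part of either list in the *Cdkn1a* ratio was not tested.

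The cells of each class were also divided at the class median of the share of UMIs from either list. In ALMF-like cells at or below the glucocorticoid median *Cdkn1a* was at 70.8 and 219.7 CPM, and above it at 94.6 and 336 CPM. In DMF-like cells the values were 179 and 299 CPM below and 205 and 374 CPM above, and in AT2-like cells 66.5 and 177 CPM below and 88.8 and 213 CPM above. Divided by the immediate early share, AT2-like cells had 65.8 and 176 CPM at or below the median and 82.7 and 217 CPM above. DMF-like cells had 145 and 214 CPM below and 229 and 443 CPM above, and ALMF-like cells 72.9 and 261 CPM below and 88.8 and 313 CPM above. In these 3 classes, cells of each library richer in either list had the higher *Cdkn1a* level, and on either side of the median the *Gli1 HHIPCKO* level was the higher. The shares were not matched within a side, since 74.0% of *Gli1 HHIPCKO* and 27.7% of control AT2-like cells lay above the glucocorticoid median. At or below the glucocorticoid median the *Gli1 HHIPCKO* level was the lower in proliferating-like (142 and 108 CPM), lymphocyte-like (41.8 and 33.9) and red cell-like cells (14.1 and 12.9), the last 2 from 4 UMIs each in that library. Cells richer in a list were not the higher in control alveolar fibroblast-like cells (27.5 CPM below and 19.9 above the glucocorticoid median), control proliferating-like cells (142 and 140.3) or *Gli1 HHIPCKO* endothelial-like cells (544 and 444). The same held for ciliated-like cells by the immediate early share, with 369 below and 352 above in control and 526 and 481 in *Gli1 HHIPCKO* cells.

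Promoter sequences were read for the 7 members and are printed for the genes past the 2-fold limit, from 250 bases before to 50 after a start, from RefSeq on GRCm38.p6. Of these members 6 were matched, with 9 promoters, and *Cdkn1c* was not. Both strands were searched for a pair of CATG cores with 6 bases between them, the spacing in a p53 response element, for the GC box GGGCGG and for the TATA box TATAAA, motifs chosen with the sequences in view. The first was found in 1 of the 9 promoters, *Cdkn1a* promoter 1, and in 0.712% of 32851 promoters. GGGCGG was found in 7 of 9 and in 35.7% of all, and TATAAA in 0 of 9 and in 13.6% of all. *Cdkn1a* promoter 1 lies at chr17:29090729-29091028 and promoter 2 at chr17:29093519-29093818, both on the plus strand, and *Cdkn2c* promoter 1 at chr4:109666707-109667006 and promoter 2 at chr4:109665323-109665622, both on the minus strand. Capitals mark a motif, and a match is a description of these letters only.
Cdkn1a promoter 1: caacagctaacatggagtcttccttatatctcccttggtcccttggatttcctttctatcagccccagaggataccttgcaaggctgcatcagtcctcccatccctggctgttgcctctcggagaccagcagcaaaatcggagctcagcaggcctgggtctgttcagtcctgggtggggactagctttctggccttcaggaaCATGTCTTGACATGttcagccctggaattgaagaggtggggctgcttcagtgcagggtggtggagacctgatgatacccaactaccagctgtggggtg
Cdkn1a promoter 2: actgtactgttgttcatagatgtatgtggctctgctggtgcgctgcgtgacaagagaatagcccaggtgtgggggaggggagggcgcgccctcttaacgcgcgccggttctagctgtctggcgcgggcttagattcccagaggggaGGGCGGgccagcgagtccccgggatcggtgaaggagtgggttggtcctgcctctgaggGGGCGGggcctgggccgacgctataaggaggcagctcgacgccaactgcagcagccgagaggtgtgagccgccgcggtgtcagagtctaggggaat
Cdkn2c promoter 1: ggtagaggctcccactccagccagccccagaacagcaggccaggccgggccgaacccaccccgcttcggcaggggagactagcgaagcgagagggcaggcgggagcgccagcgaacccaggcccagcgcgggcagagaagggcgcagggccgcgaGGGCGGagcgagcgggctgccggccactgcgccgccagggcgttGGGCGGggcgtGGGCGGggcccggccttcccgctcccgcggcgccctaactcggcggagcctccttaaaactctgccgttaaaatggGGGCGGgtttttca
Cdkn2c promoter 2: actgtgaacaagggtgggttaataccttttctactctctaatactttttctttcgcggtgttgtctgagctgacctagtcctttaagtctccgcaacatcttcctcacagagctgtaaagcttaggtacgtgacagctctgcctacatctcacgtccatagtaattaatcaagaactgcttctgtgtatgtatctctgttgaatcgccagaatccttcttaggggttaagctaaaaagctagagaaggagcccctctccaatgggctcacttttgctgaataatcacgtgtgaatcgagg

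*Cdkn1b* (ENSMUSG00000003031; chromosome 6, 134920401 to 134925513, plus strand) encodes p27, which holds cells in the resting state and whose amount is set largely by protein turnover. It had 3700 and 5189 UMIs, and no class passed 2-fold between the libraries. It was slightly higher in the *Gli1 HHIPCKO* library in 7 of 12 classes by counting error, a count with no share of all genes beside it. Its log2 ratios ran from −0.18 to 0.79. Lymphocyte-like cells had the highest level, at 215 and 238 CPM. ALMF-like cells had 153 and 183 CPM (0.26; 0.08 to 0.45) and DMF-like cells 140.3 and 157 CPM (0.16; 0.02 to 0.30). AT2-like cells, with 1015 and 1633 UMIs, had 56.7 and 79.7 CPM, a log2 ratio of 0.49 (0.38 to 0.61) that 6.88% of genes exceeded.

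Peribronchial fibroblast-like cells had 91.4 and 135 CPM (0.56; 0.20 to 0.94), adventitial fibroblast-like cells 80.1 and 104 CPM (0.37; 0.07 to 0.68) and pericyte-like cells 77.7 and 116 CPM (0.57; 0.18 to 0.98). In these classes 10.5%, 17.4% and 7.73% of all genes had a larger ratio. Alveolar fibroblast-like cells had 58.4 and 70.9 CPM, with an interval that included 0. Endothelial-like cells had 88.0 and 152 CPM from 29 and 30 UMIs, an interval that began at 0.0021. Ciliated-like cells were lowest in both libraries, at 52.1 and 55.2 CPM. Red cell-like cells had 136 and 121 CPM and proliferating-like cells 86.5 and 76.6 CPM. Against the median of all genes these latter ratios were −0.75 (−1.10 to −0.41) and 0.0082 (−0.46 to 0.46).

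Of the 12 steps between neighbours in the control order of *Cdkn1b*, myeloid-like cells included, 1 was larger than counting error, that from red cell-like to peribronchial fibroblast-like cells. In the *Gli1 HHIPCKO* library the steps below lymphocyte-like, below ALMF-like and below adventitial fibroblast-like cells were larger. In AT2-like clusters 0 and 1, which both libraries fill, *Cdkn1b* had 50.5 and 75.0 CPM and 48.9 and 74.3 CPM, close to the values of the class. In ALMF-like cluster 104 it had 153 and 151 CPM. The interval there, −0.70 to 0.58, holds both 0 and the 0.26 of the class, so this cluster does not tell them apart. After thinning, 10.6% of 3290 control AT2-like cells and 15.5% of 3200 in the other library had a *Cdkn1b* UMI, against 22.2% and 36.4% before, with 449 and 266 cells left out. In red cell-like cells it was 26.3% and 19.4% after thinning.

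*Cdkn1c* (ENSMUSG00000037664; chromosome 7, 143458339 to 143461050, minus strand) encodes p57 and is an imprinted gene expressed from the maternal allele. It was the member with the most UMIs, 9154 and 11803, and marked pericyte-like cells in both libraries. No class passed 2-fold here, although red cell-like cells did in 4 of 8 alternatives, with 1.78 (1.15 to 2.46) without doublet-like cells against the 0.91 reported. The sign of the ratio differed between classes beyond counting error. It was above 0 in ALMF-like, pericyte-like, AT2-like and red cell-like cells and below 0 in ciliated-like and adventitial fibroblast-like cells.

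Pericyte-like cells had 1515 and 1761 CPM, a log2 ratio of 0.22 (0.13 to 0.31), and 86.6% and 93.3% of them had a UMI after thinning. Ciliated-like cells came next, at 1284 and 746 CPM, and the log2 ratio of −0.78 (−0.94 to −0.64) is lower than that of 97.2% of genes in the class. It was −0.54 without doublet-like cells. The share of ciliated-like cells with a UMI was 65.6% of 192 and 53% of 100 after thinning, with intervals of 58.4 to 72.3 and 42.8 to 63.1. DMF-like cells followed at 387 and 401 CPM, with a ratio of 0.05 (−0.04 to 0.14). Each of these steps, from pericyte-like to ciliated-like to DMF-like cells, was larger than counting error in both libraries.

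Below them, the control levels of adventitial (288 CPM), peribronchial (252) and alveolar fibroblast-like cells (232) and of ALMF-like cells (211) did not differ from one step to the next, and the first of them lay below DMF-like cells beyond counting error. In the *Gli1 HHIPCKO* library the order was ALMF-like (277), peribronchial (241), alveolar (236) and adventitial fibroblast-like cells (201). Adventitial fibroblast-like cells thus went from the first to the last of the 4, with a log2 ratio of −0.52 (−0.71 to −0.33), and ALMF-like cells from the last to the first, with 0.39 (0.24 to 0.54). The adventitial ratio was −0.62 (−0.84 to −0.40) in cluster 106 and −0.31 (−0.72 to 0.08) in cluster 112. Inside ALMF-like cluster 104 the levels were 211 and 242 CPM, with an interval from −0.32 to 0.67. Peribronchial cluster 109 had 382 and 333 CPM and cluster 113 had 42.6 and 47.7 CPM, so that class holds cells with high and with low *Cdkn1c*.

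AT2-like cells were lowest in both libraries, at 35.8 and 40.9 CPM (0.19; 0.04 to 0.34). After thinning, 5.71% and 6.44% of them had a UMI, against 4.88% and 9.14% of red cell-like cells. AT2-like cluster 8, with mostly doublet-like cells, held 287 of the 642 and 450 of the 839 UMIs, at 101 and 133 CPM (0.40; 0.18 to 0.62). In clusters 0 and 1 the level was 22.2 and 18.4 CPM and 19.9 and 24.8 CPM, with intervals that include 0. Endothelial-like cells had 18 and 29 UMIs, fewer than the 50 asked for, at 54.6 and 147 CPM. Lymphocyte-like cells had 93.5 and 100.4 CPM and proliferating-like cells 46.5 and 48.0 CPM, the latter with 0.23 (−0.38 to 0.82) against the median of all genes. Red cell-like cells had 42.2 and 79.4 CPM, or a log2 ratio of 0.33 (−0.19 to 0.86) against that median.

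*Cdkn2a* (ENSMUSG00000044303; chromosome 4, 89274471 to 89294653, minus strand) gives rise to p16 and Arf from different first exons, which counts per gene do not separate. All its 11 UMIs were in the control library. They lay in endothelial-like cells (4 UMIs in 4 of 153 cells), proliferating-like cells (3 UMIs in 3 of 215), adventitial fibroblast-like cells (2 UMIs in 2 of 525) and myeloid-like cells (2 UMIs). In endothelial-like cells 4 of 153 (2.61%; 0.717 to 6.56) stood against 0 of 100, which allows a share of up to 3%. A difference between the mice was not detectable at this depth in any class. The largest class sets the lowest limit, since 0 of 3739 control and 0 of 3466 *Gli1 HHIPCKO* AT2-like cells allow shares of up to 0.0802% and 0.0866%. In alveolar fibroblast-like cells, 0 of 478 and 0 of 1746 allow 0.628% and 0.172%, and in pericyte-like cells 0 of 468 and 0 of 797 allow 0.641% and 0.376%.

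*Cdkn2b* (ENSMUSG00000073802; chromosome 4, 89306299 to 89311039, minus strand), the neighbour of *Cdkn2a* at a distance of 11645 bases, encodes p15, an inhibitor known to be induced by TGF-β. It was detected mainly in epithelial and endothelial cells. AT2-like cells had 224 and 305 UMIs, or 12.5 and 14.9 CPM, a log2 ratio of 0.25 (−0.0030 to 0.51). Ciliated-like cells had 29 and 26 UMIs, or 25.6 and 39.9 CPM (0.64; −0.18 to 1.45). Neither ratio excludes 0, so no difference was detectable in the classes where the gene was measured. Endothelial-like cells had 18 and 7 UMIs, or 54.6 and 35.5 CPM, the highest level in the control library and above that of ciliated-like cells beyond counting error. In turn ciliated-like cells were above AT2-like cells in that library, by 1.04 on the log2 scale (0.42 to 1.60).

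The stroma held few *Cdkn2b* UMIs. Pericyte-like cells had 0 in either library, which allows shares of up to 0.641% and 0.376%. ALMF-like cells had 3 and 0 UMIs, the DMF-like class 2 and 6, and the 3 other fibroblast classes between 0 and 3 in each library. In ALMF-like cells, 0 of 833 *Gli1 HHIPCKO* cells had a UMI, which allows a share of up to 0.360%. After thinning, 2.58% (2.07 to 3.18) of control and 3.06% (2.49 to 3.72) of *Gli1 HHIPCKO* AT2-like cells had a UMI, with 449 and 266 cells left out, against 5.62% and 8.05% before. In DMF-like cells the thinned shares were 0.146% and 0.385%, so the AT2-like shares were the higher. AT2-like clusters 0 and 1 were alike, with 14.0 and 15.9 CPM and 12.7 and 15.6 CPM.

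*Cdkn2c* (ENSMUSG00000028551; chromosome 4, 109660876 to 109667189, minus strand) encodes p18, which binds CDK6 more than CDK4. It was a gene of ALMF-like cells, and the level there fell in the *Gli1 HHIPCKO* library from 258 to 129 CPM (851 and 340 UMIs). The log2 ratio of −1.002 (−1.19 to −0.82) is at the 2-fold limit itself and came to −0.99 and −0.97 under other scalings. Across 9 alternatives it ran from −1.29 (stricter cells) to −0.57 (resolution 2), and 4 of them passed the limit. DMF-like cells had 91.6 and 47.0 CPM, a log2 ratio of −0.96 (−1.18 to −0.74). A larger fall was called in AT2-like cells, but most of their UMIs lay in clusters that carry myofibroblast markers.

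In the control library ALMF-like cells were above all other classes beyond counting error. Alveolar fibroblast-like cells (98.1 CPM) and DMF-like cells (91.6) followed and did not differ. Pericyte-like (56.7), proliferating-like (53.1), lymphocyte-like (39.1) and myeloid-like cells (32.4) came next, and the remaining classes lay between 24.4 and 11.5 CPM, each within counting error of its neighbours. In the *Gli1 HHIPCKO* library ALMF-like cells were still first, but alveolar fibroblast-like cells at 104 CPM were now close behind, 0.31 lower on the log2 scale (0.12 to 0.50). DMF-like cells came after proliferating-like (71.4 CPM) and pericyte-like cells (50.8 CPM) in this library. Alveolar fibroblast-like cells, with 163 and 674 UMIs, had a log2 ratio of 0.08 (−0.17 to 0.34), and peribronchial, adventitial and pericyte-like cells had −0.12, 0.11 and −0.16 with intervals that include 0. The lower level was thus not detectable in these classes as a whole. In pericyte-like cluster 103 *Cdkn2c* was the higher in the *Gli1 HHIPCKO* library, at 27.8 and 49.6 CPM (0.84; 0.11 to 1.62), as it was in pericyte-like cells without doublet-like cells (0.72; 0.04 to 1.44). Peribronchial cluster 113 also had the higher level there, from 4 and 13 UMIs (1.79; 0.09 to 3.86). Peribronchial cluster 109 had the lower level there, from 23 and 15 UMIs (−0.92; −1.97 to 0.08), with an interval that includes 0.

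Inside ALMF-like cluster 104, *Cdkn2c* was at 256 CPM in 1043 control cells and at 118 CPM in 55 *Gli1 HHIPCKO* cells, a log2 ratio of −1.12 (−1.88 to −0.45). In cluster 105 the 7 control cells had 11 UMIs (522 CPM) and the 778 *Gli1 HHIPCKO* cells 129.5 CPM. With 7 control cells, cluster 105 was not compared. For DMF-like cells the clusters did not settle it, since cluster 101 had 92.5 CPM for the control mouse and, from 8 UMIs in 34 cells, 70.3 CPM for the other (30.4 to 139), and cluster 100 had 1 UMI in its 20 control cells. At resolution 2 the DMF-like ratio turned to 1.18. After thinning, 38.1% of control ALMF-like cells and 20.8% of the others had a *Cdkn2c* UMI, without 133 and 91 cells, against 50.8% and 31.0% before. In DMF-like cells the thinned shares were 13.6% and 9.38%, without 262 and 155 cells, against 19.9% and 14.0% before. Red cell-like cells gave 2.44% and 3.43% after thinning.

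In AT2-like cells *Cdkn2c* had 210 and 107 UMIs, or 11.7 and 5.22 CPM, a log2 ratio of −1.17 (−1.52 to −0.82). Without doublet-like cells the ratio was −0.60, short of the 2-fold limit. Of the 210 and 107 UMIs, 182 and 73 were in AT2-like cluster 8, with 404 and 432 cells. That cluster had medians of 6949 and 7915.5 UMIs, against 5784 and 5932 in cluster 0, and 71.8% and 66.7% of its cells scored as doublet-like. All 12 ALMF and all 12 DMF markers had UMIs there, with sums of 1529 and 1006 CPM for the ALMF list and 2036 and 2121 CPM for the DMF list. *Agt* and *Egfem1* were the most abundant ALMF markers and *Aspn* the most abundant DMF marker. In cluster 0 the same lists summed to 135 and 126 CPM and to 54.8 and 66.2 CPM. Cluster 116, with 56 cells of each library and 13 and 11 *Cdkn2c* UMIs, also carried both lists, at 3346 and 3039 and at 4295 and 4273 CPM.

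Without clusters 8 and 116, a setting chosen after seeing the data, 3279 control and 2978 *Gli1 HHIPCKO* AT2-like cells were left. They had 15 and 23 *Cdkn2c* UMIs, or 1.01 and 1.36 CPM (log2 ratio 0.43; −0.57 to 1.47). The lower AT2-like level of *Cdkn2c* was therefore not seen in AT2-like cells outside the clusters with myofibroblast markers. For *Cdkn1a* the same cells had 68.5 and 195 CPM, a log2 ratio of 1.51 (1.41 to 1.61), as in the whole class. *Cdkn1a* was at 73.8 and 193 CPM in cluster 0, at 65.1 and 224 CPM in cluster 1 and at 88.7 and 248 CPM in cluster 8.

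**Figure D3:**
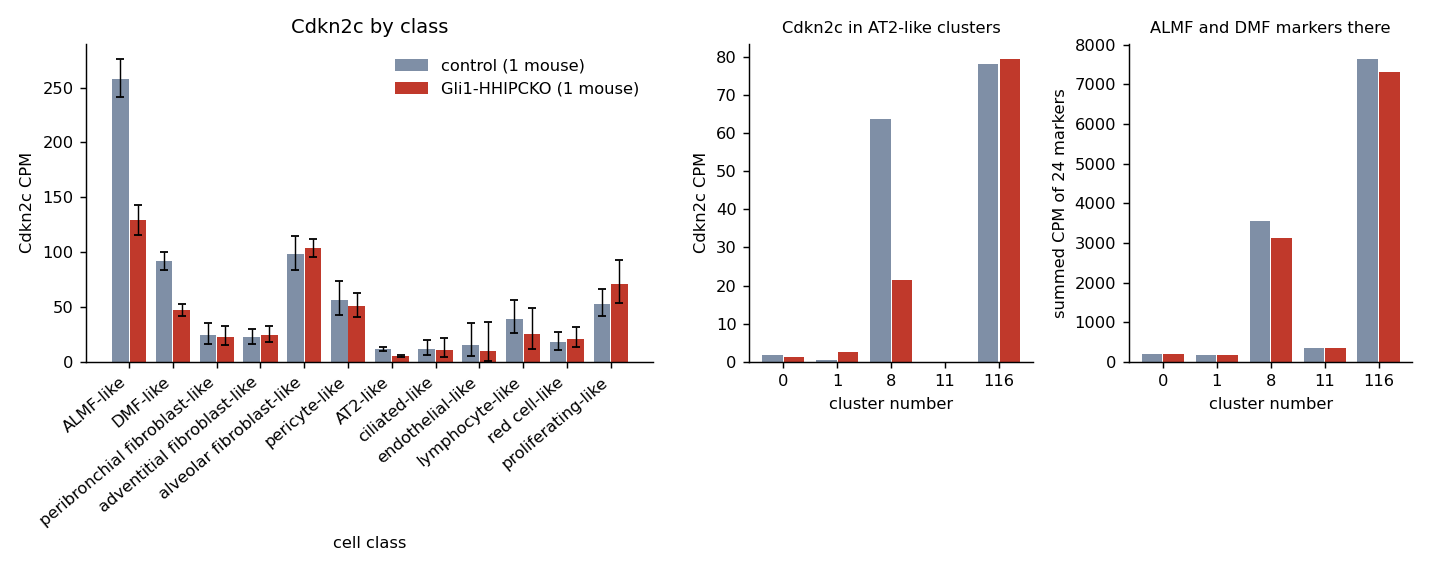
*Cdkn2c* in CPM by cell class, with 95% exact Poisson intervals of counting error (left), and by AT2-like cluster (middle), beside the summed CPM of the 12 ALMF and 12 DMF markers in the same clusters (right), for 1 control and 1 *Gli1 HHIPCKO* mouse. ALMF-like cells have 258 and 129 CPM. Among AT2-like clusters *Cdkn2c* is highest in 8 (63.8 and 21.5 CPM) and 116 (78.1 and 79.4 CPM), the clusters with high marker sums. It is low in clusters 0 (1.77 and 1.25 CPM) and 1 (0.488 and 2.61 CPM).

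*Cdkn2d* (ENSMUSG00000096472; chromosome 9, 21288410 to 21291407, minus strand) encodes p19 of the INK4 family, whose transcript is known to be periodic in the cell cycle. It was highest in proliferating-like and lymphocyte-like cells and slightly lower in the *Gli1 HHIPCKO* library in myofibroblast-like and alveolar fibroblast-like cells. No class passed 2-fold. Proliferating-like cells had 243 and 286 CPM (370 and 220 UMIs), or a log2 ratio of 0.42 (0.17 to 0.66) against the median of all genes. Lymphocyte-like cells had 201 and 169 CPM (−0.25; −0.71 to 0.20). These levels were not apart in control, and in the *Gli1 HHIPCKO* library lymphocyte-like cells were lower by 0.75 on the log2 scale (0.33 to 1.19).

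After lymphocyte-like cells in control came myeloid-like cells at 151 CPM, above pericyte-like cells beyond counting error. Pericyte-like cells had 69.3 and 69.5 CPM. DMF-like cells had 56.5 and 37.5 CPM (−0.59; −0.85 to −0.33), ALMF-like cells 55.2 and 41.3 CPM (−0.42; −0.77 to −0.07) and alveolar fibroblast-like cells 25.3 and 16.0 CPM (−0.66; −1.19 to −0.11). In alveolar fibroblast-like cluster 102 the ratio was −0.76 (−1.38 to −0.12). In ALMF-like cluster 104 the levels were 55.5 and 52.4 CPM, and in DMF-like cluster 101 56.9 and 79.1 CPM, from 9 *Gli1 HHIPCKO* UMIs. The interval of cluster 104, −1.32 to 0.92 from 8 *Gli1 HHIPCKO* UMIs, includes both 0 and the −0.42 of the class. Peribronchial and adventitial fibroblast-like cells had 37.1 and 33.8 CPM and 28.7 and 23.4 CPM, with intervals that include 0. AT2-like cells, with 288 UMIs in each library, had the lowest level, 16.1 and 14.0 CPM (−0.19; −0.44 to 0.05). Ciliated-like, red cell-like and endothelial-like cells had fewer than 50 UMIs, with 30.4 CPM as their highest level.

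The proliferating-like class, cluster 18, was a mixed one that also carried *Hbb-bs* UMIs, 36555 and 74556 in the 203 and 87 cells of at least 2000 UMIs, and had medians of 6610 and 7145 UMIs. To read the inhibitors against division elsewhere, cells with at least 2 of 12 proliferation genes after thinning were counted. Such cells were rare in the stroma and epithelium. There were 7 of 3530 control (0.198%) and 4 of 4787 *Gli1 HHIPCKO* mesenchymal cells (0.0836%), and 6 of 3516 and 3 of 3307 epithelial cells. In proliferating-like cells themselves they made up 64.0% of 203 and 82.8% of 87 cells.

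In the control red cell-like group, 24 of 205 cells (11.7%) were proliferating by this count, and *Cdkn2d* was at 74.1 CPM in them and 8.80 CPM in the others, a log2 ratio of 3.07 (1.67 to 4.52). *Cdkn2c* was at 47.2 and 12.7 CPM there (1.89; 0.33 to 3.32) and *Cdkn1b* at 236 and 122 CPM (0.95; 0.36 to 1.499). The *Cdkn2c* values rest on 7 and 13 UMIs. In control immune cells 27 of 188 (14.4%) were proliferating, and *Cdkn1a* was at 68.6 CPM in them and 197 CPM in the others, a log2 ratio of −1.52 (−2.86 to −0.43). Of those 27 immune cells 25 were lymphocyte-like, a class with 48.8 CPM of *Cdkn1a* in control against 311 in myeloid-like cells, so dividing state and cell type cannot be told apart there. *Cdkn2d* in immune cells, at 137 and 158 CPM, was not apart. In the *Gli1 HHIPCKO* library 18 of 175 red cell-like cells were proliferating and *Cdkn2d* had 3 UMIs in them, with an interval from −1.36 to 2.87. *Cdkn2c* went the other way in that library, with 0 UMIs in these cells and 22 (22.6 CPM) in the others. The *Cdkn1b* ratio there was 0.70 (−0.16 to 1.46), with an interval that includes 0. The 7, 4, 6 and 3 proliferating cells of mesenchyme and epithelium are too few to read a member in.

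Genes that act with the inhibitors were read from lists, with values given for ALMF-like, then DMF-like, then AT2-like cells. Of 18 G1 cyclins, their kinases, pocket proteins and E2F partners, 13, 12 and 15 were measured, 0 were up, and 1 was down. That gene was *Ccnd2*, cyclin D2, which fell in ALMF-like cells from 80.4 to 22.0 CPM (−1.87; −2.31 to −1.46). List medians were −0.11, 0.08 and −0.14. Of 12 proliferation genes 1, 2 and 2 were measured, and *Mki67* was down in each class, from 23.7 to 9.48, from 27.2 to 6.55 and from 2.18 to 0.537 CPM. Levels of *Mki67* were low throughout.

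Of 19 genes of p53 and its targets, which do not include *Cdkn1a*, 15 were measured in ALMF-like, 16 in DMF-like and 17 in AT2-like cells. In ALMF-like cells 0 were up and 3 down, in DMF-like cells 0 up and 1 down, and in AT2-like cells 2 up and 1 down. *Plk2* was down in all 3, from 262 to 69.0 CPM (−1.93; −2.16 to −1.69), from 92.9 to 37.6 CPM and from 38.7 to 16.4 CPM. *Bbc3*, the apoptosis gene Puma, and *Sesn2* were the others down in ALMF-like cells, at −1.23 and −1.02. In AT2-like cells *Sesn2* was up, from 13.7 to 29.2 CPM (1.09; 0.88 to 1.31), as was the stress cytokine *Gdf15*, from 11.4 to 23.9 CPM (1.06; 0.82 to 1.30). The medians of the list were −0.20, −0.19 and 0.0015, with both directions among its genes. In peribronchial, adventitial and alveolar fibroblast-like cells, where *Cdkn1a* was up, 2 of 12, 2 of 13 and 2 of 14 measured genes were up and 0 down, with medians of 0.13, −0.0098 and 0.06. In pericyte-like cells, with the largest *Cdkn1a* ratio, 1 of 11 was up and 0 down, with a median of −0.07, and in endothelial-like and red cell-like cells 0 of 5 and 0 of 4 were up.

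Of 16 transcription factors known to act on CDK inhibitor genes, 15, 15 and 16 were measured and 0 were down. *Cebpb*, a factor of inflammatory and stress responses, was up in ALMF-like cells from 213 to 847 CPM (1.99; 1.87 to 2.12) and in DMF-like cells from 447 to 976 CPM (1.13; 1.05 to 1.20). The list medians were 0.07, 0.09 and 0.25. All 15 polycomb subunits and H3K27 demethylases were measured in each class. *Kdm6a*, an X-linked demethylase, was up in AT2-like cells from 12.8 to 28.2 CPM (1.14; 0.92 to 1.37), and the mice also differed in *Xist*. *Cbx8* and *Cbx2* were down in DMF-like cells, from 19.6 to 8.90 and from 12.7 to 6.05 CPM. Of the 7 genes of p27 turnover 6, 7 and 6 were measured and 0 were up or down, with medians of −0.15, 0.07 and −0.14.

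Pairs of members were read in the same cells after thinning to 2000 UMIs. Over 74 pairs within a class and library, the share of cells with the second gene had overlapping intervals in cells with and without the first in 71, a stricter rule than an interval of the difference. In the other 3, all in the control library, it was higher in cells with the first. In DMF-like cells 57.4% of 331 cells with *Cdkn1a* had *Cdkn1c*, against 48.7% of 1042 without. In ciliated-like cells the shares were 77.5% of 80 and 57.1% of 112 for the same pair. In AT2-like cells 4.02% of 348 cells with *Cdkn1b* had *Cdkn2c*, against 1.63% of 2942 without, and the cells of the AT2-like clusters 8 and 116 are among these. No pair was lower with intervals apart. Some were lower with intervals that overlap, such as *Cdkn2c* in 9.67% of control DMF-like cells with *Cdkn1a* and 14.9% of those without. *Cdkn2d* was in 4.98% of *Gli1 HHIPCKO* ALMF-like cells with *Cdkn1b* and 10.2% of those without, so members that avoid the same cells are not excluded.

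Genes with the most similar profile were found by Pearson correlation of log2(CPM + 10) over 25 points, each a class of 1 library with at least 50 cells, among 10866 genes. The points of a library share their depth and mouse, so the values are a description. *Cdkn1a* was closest to *Gsr* (0.775), *Fos* (0.762), *Fosb* (0.757), *Jun* (0.743) and *Arrdc4* (0.729). *Cdkn1b* was closest to *Ypel3* (0.798), *Pik3ip1*, *Zkscan14*, *Clk3* and *Lsp1*. *Cdkn1c* was closest to *Kcnq1ot1* (0.931), a noncoding RNA of the same imprinted region that lies 161789 bases away, and then to *Snrpn*, *Ift43*, *Ppp2r3a* and *Fam49a*. *Cdkn2b* was closest to the epithelial genes *F11r* (0.965), *Clic5*, *Mansc1*, *Cracr2b* and *Ocln*. *Cdkn2c* was closest to *Slc40a1* (0.849), *Tango2*, *Ormdl3*, *Ube2e3* and *Slc25a42*. *Cdkn2d* was closest to *Tex30* (0.913), *Nrm*, *Vrk1*, *Jpt1* and *Ddx39* (0.894). Among the members, the highest value was 0.393, for *Cdkn1a* with *Cdkn2b*, and the lowest was −0.610, for *Cdkn2b* with *Cdkn2c*. *Cdkn2a* had too few UMIs to be included.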

How the data were processed

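The counts were the deposited gene by cell UMI counts of each library, with the genes listed by the authors; the file header names CellRanger 6.1.0 and the submitters' processing notes name 3.1.0; the build is mm10. A cell was used if it had 200 to 6000 genes and a mitochondrial share of no more than 10%. No cell was left out as a doublet in the values reported. Cells were scored as doublet-like, and leaving out 953 control and 1174 *Gli1 HHIPCKO* such cells (0.8% per 1000 cells) was an alternative. Both libraries were clustered together without integration (2000 variable genes, 30 components, 20 neighbours, Leiden at resolution 1), in a first step for all cells and a second for mesenchyme. Clusters were named from marker lists with thresholds that were set and revised after the clusters were seen. The 7 members and the gene lists were chosen with earlier results of these data known. Genes named in the text are the members, *Hhip* and *Xist*, up to 4 genes per list and direction with the largest change past 2-fold in either myofibroblast class or AT2-like cells, and the 5 genes most correlated with each member that had at least 500 UMIs; others were chosen after their values were seen. Positions are from gencode vM21 on GRCm38. Values were recomputed under 9 alternatives, namely resolutions of 0.5 and 2, libraries clustered on their own, no doublet-like cells, stricter cell filters (500 to 5000 genes, at most 5% mitochondrial), scaling without abundant gene families, centring on the median of all genes, the mean over cells and thinning, and shares of all genes also with a minimum of 20 or 200 UMIs. Ratios, intervals and thinning were tested on simulated counts that had counting error only. Clustering, naming, doublet scoring and variation between mice were not tested in this way. Clustering used leidenalg 0.10.2 with igraph 0.11.9 and scikit-learn 1.9.0, intervals scipy 1.17.1, tables pandas 2.3.3 and numpy 2.4.6 and figures matplotlib 3.10.9, all in Python 3.11.15.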

Additional observations from a re-analysis of the deposited data

How the results depend on the processing

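Of 520 log2 ratios under other settings, 462 stayed within the counting interval of the value reported, 55 moved out of it and 3 changed sign from a value whose interval excludes 0. Among the 462 and 55, 26 had another sign than a value whose interval includes 0. Settings by list share, with ALMF-like and DMF-like cells summed, or without AT2-like clusters 8 and 116 were chosen after seeing the data. The number of member and class pairs up, 8, was 5 after thinning, where 39 pairs were measured, 7 under both other scalings, 9 without doublet-like cells, 10 at resolutions 0.5 and 2 and 12 with libraries clustered on their own. The number down, 2, was 1 at resolutions 0.5 and 2, with libraries clustered on their own, without doublet-like cells, under both other scalings, as a mean over cells, after thinning and without clusters 8 and 116, and 3 with stricter cells. *Cdkn1a* in ALMF-like cells was at 2.21 with stricter cells, 1.63 at or below the glucocorticoid median and 1.18 with ALMF-like and DMF-like cells summed. In AT2-like cells it was at 1.39 above the immediate early and 1.26 above the glucocorticoid median. In DMF-like cells it was at −0.014 at resolution 2, 0.31 with libraries on their own, 0.55 with stricter cells, 0.56 at or below the immediate early median, 0.74 at or below the glucocorticoid median and 1.18 summed. In proliferating-like cells it was −0.39 at or below the glucocorticoid median. *Cdkn2c* in ALMF-like cells was at −0.57 at resolution 2, −0.60 on their own and −1.29 with stricter cells. In DMF-like cells it was at −0.46 at resolution 0.5, 1.18 at resolution 2, −0.43 on their own, −1.40 with stricter cells and −0.74 after thinning. The cause was not tested, but the classes differed in size: at resolution 2 there were 505 and 873 DMF-like cells, and at resolution 0.5 there were 1044 and 64 ALMF-like cells. With at least 20 or at least 200 UMIs asked of a gene, 42 of 48 shares of all genes past 2-fold moved and 6 did not. Cells without a glucocorticoid-induced UMI had fewer than the 50 UMIs of *Cdkn1a* or *Cdkn2c* asked for in every class, so no ratio was taken. No paired analysis was possible because each group had 1 mouse and both are replicate 1.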

Other observations

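Clusters without a class name were also read for *Cdkn1a*, which was higher in the *Gli1 HHIPCKO* library in the 6 that held enough cells. Cluster 10, led by the mesothelial genes *Msln* and *Upk3b*, had 127 and 185 CPM, and cluster 107, with 305 control and 345 *Gli1 HHIPCKO* cells, had 64.0 and 258 CPM (2.01; 1.66 to 2.38). Cluster 108 had 88.7 and 135 CPM of *Cdkn1a* and 244 and 378 CPM of *Cdkn1c* (0.63; 0.36 to 0.90), while *Cdkn1c* was the lower in cluster 107 (−0.40; −0.59 to −0.22) and in cluster 13 (−0.55; −0.79 to −0.29). In cluster 13 *Cdkn2d* passed the 2-fold limit downwards, with 24.8 and 10.7 CPM (−1.22; −1.97 to −0.47), and *Cdkn2c* was the higher (0.90; 0.24 to 1.61). No share of all genes past the limit was taken for this cluster. It carried markers of 2 lineages, with AT2 genes and the alveolar fibroblast marker *Mfap4* among its leading genes. The part of this mix of cells in its ratios was not tested. Imprinted genes, 15 in number, were read beside *Cdkn1c*. In ALMF-like cells 3 of 9 measured were up and 1 down, against 3.4% and 1.85% of all genes. In DMF-like cells 4 of 11 were up, against 2.69%, and in AT2-like cells 2 of 13, against 1.47%. The medians were 0.20, 0.20 and 0.09, where those of all genes were −0.03, −0.0038 and −0.02. *Igf2* was up in each, from 3.03 to 28.0 CPM, from 5.52 to 19.5 CPM and from 2.85 to 7.66 CPM.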
